A study of Mus musculus with 20 samples.

Results

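Among 10 vehicle livers of outbred mice, the genes that differed most between animals included Saa2 and Lcn2, which rise in inflammation, Dbp, an output gene of the clock, the male-biased Moxd1, the fatty acid hydroxylase Cyp4a14, the metallothioneins Mt2 and Mt1, and the deiodinase Dio1. These were the genes whose residual SD, the SD of log2 values left after each group's mean was subtracted, was at least 1 log2 unit in livers of male CD-1 mice given the methylcellulose vehicle for 28 or 90 days. A total of 88 of 18193 genes met this rule (0.484%), and they were chosen by that spread alone, so the spread itself is a description without a test. Group means were not compared. CD-1 is an outbred stock, in which individual mice are not genetically identical.

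The series holds 20 Affymetrix arrays of liver RNA, 1 per mouse, from 4 groups of 5 male CD-1 mice, and the mouse is the unit of each test below. The vehicle groups, titled CMC_28d and CMC_90d, were dosed by mouth each day with 0.5% methylcellulose 15 for 28 or 90 days. The treated groups, titled PB_28d and PB_90d, received phenobarbital sodium at 80 mg/kg/day in the same vehicle for the same durations and serve here as other animals in which the same genes can be read. The left lateral lobe was taken on the day after the last dose and frozen. The sources used here do not give the age of the mice, their feeding state or the hour of death. Mice are named by their duration and the replicate number of the title, and values are listed in the order of mice 1 to 5 of each duration.

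Liver transcripts differ between healthy mice because hepatocytes answer signals that change from hour to hour and from animal to animal. Inflammatory cytokines raise acute-phase proteins through C/EBP and STAT factors, unfolded proteins raise chaperones through heat shock factor, and metals and glucocorticoids raise metallothioneins. The circadian clock drives rhythmic output genes such as Dbp, and pulses of growth hormone set the sex-biased genes. In a stock that is not inbred, inherited differences in single genes add to these.

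The RMA values of the vehicle arrays correlated with each other between 0.955 and 0.992 over all 45037 probe sets. No vehicle array stood apart: the mean correlation of an array with the other 4 of its group lay between 0.976 and 0.989. Among the treated arrays it was 0.923 for replicate 5 at 28 days and 0.954 for replicate 3 at 90 days, against 0.969 to 0.979 for the other 8, so treated results are given with and without these 2. Of 10 hepatocyte identity markers, 9 were measured and all 9 were above background, taken as each array's 25th percentile. Their mean level was 13.52 and 13.59 in 28-day mice 1 and 3 and 13.94 to 14.09 in the other vehicle livers. Alb, for serum albumin, had a mean of 15.16 and a residual SD of 0.03. Over the 9 markers the residual SD had a median of 0.17 and reached 0.55. Arrays give no counts, so the number of mice limits the precision.

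The stretches before the annotated starts of 5 members are shown because their genes moved most closely with a neighbour or carry the motif of the response the gene is known for. They are the 250 bases upstream of the start in RefSeq's annotation of build GRCm38.p6, 5′ to 3′ on the gene's own strand, with the motif in capitals. Saa1 (chr7:46742981-46743230, minus strand) and Saa2 (chr7:46751583-46751832, plus strand) face away from each other and each hold TTGCNNAA, the C/EBP type, on the strand shown. Hspa1b (chr17:34959239-34959488, minus strand) holds GAANNTTC, 2 heat shock units facing each other. Its copy Hspa1a differs from it at 3 of 250 positions upstream. Creld2 (chr15:88819396-88819645, plus strand) holds the ER stress response element, CCAAT, 9 bases and CCACG, read here on the opposite strand. Mt2 (chr8:94172368-94172617, plus strand) holds TGCACNC or TGCGCNC, the core of the metal response element, with 1 of 3 matches on the opposite strand.
Saa1: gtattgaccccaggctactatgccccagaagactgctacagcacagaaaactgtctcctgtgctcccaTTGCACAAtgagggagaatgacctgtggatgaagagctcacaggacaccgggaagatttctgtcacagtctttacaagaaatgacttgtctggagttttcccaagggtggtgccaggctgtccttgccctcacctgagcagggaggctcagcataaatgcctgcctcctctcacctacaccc
Saa2: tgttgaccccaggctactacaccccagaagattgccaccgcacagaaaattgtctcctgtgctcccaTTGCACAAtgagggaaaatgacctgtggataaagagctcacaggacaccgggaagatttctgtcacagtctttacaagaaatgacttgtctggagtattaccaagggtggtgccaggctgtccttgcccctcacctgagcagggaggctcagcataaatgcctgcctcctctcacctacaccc
Hspa1b: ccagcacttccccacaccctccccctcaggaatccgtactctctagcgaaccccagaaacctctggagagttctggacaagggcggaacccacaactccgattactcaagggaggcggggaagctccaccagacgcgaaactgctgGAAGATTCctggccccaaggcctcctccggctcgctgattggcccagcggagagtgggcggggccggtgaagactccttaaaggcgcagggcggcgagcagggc
Creld2: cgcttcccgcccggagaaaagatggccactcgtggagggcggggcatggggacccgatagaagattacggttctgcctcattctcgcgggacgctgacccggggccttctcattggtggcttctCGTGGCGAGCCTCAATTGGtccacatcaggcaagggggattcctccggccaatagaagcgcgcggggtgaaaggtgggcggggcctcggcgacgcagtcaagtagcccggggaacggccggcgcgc
Mt2: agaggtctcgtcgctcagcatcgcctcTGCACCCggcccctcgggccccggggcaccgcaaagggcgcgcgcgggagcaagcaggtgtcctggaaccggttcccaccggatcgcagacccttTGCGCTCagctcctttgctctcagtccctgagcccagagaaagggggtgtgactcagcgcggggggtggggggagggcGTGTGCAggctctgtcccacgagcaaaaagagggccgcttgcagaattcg

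A window of 300 bases, 250 before and 50 after the start, was found in the RefSeq table for 70 of the 88 members. Both strands were searched, a palindromic match was counted once, and matches of different motifs could overlap. TTGCNNAA was found in 10.8% of all 32851 windows of this length, or 12.2% of 27025 genes, and in 4 of the 7 members with a window that moved with Saa2: Lcn2, Orm2, Saa1 and Saa2. TTGCNNAA was also found in 2 of the 3 that moved with Cyp4a14 and in 2 of the 4 that moved with Cyp2b10. Over all 70 members it was found in 11. GAANNTTC was found in 7.86% of windows, or 9.04% of genes, and in 4 of the 8 that moved with Moxd1, namely Hspa1a, Hspa1b, Hspb1 and Hsph1. It was also in 2 of the 3 that moved with Dio1, and in 11 of the 70. The ER stress response element was rare, in 0.119% of windows and 0.137% of genes, and among members it was found in Creld2 and Syvn1. The metal response core was common, in 25.7% of windows and 28.2% of genes, and both Mt1 and Mt2 held it, as did 18 of the 70 in all. CACGTG, the E-box bound by CLOCK and BMAL1, was found in 7.15% of windows, or 8.09% of genes, and in 10 of the 70, among them Tef and Bcl6 of the genes that moved with Dbp, and these letters were not in the Dbp window. TTCNNNGAA, the STAT type, was found in 8.30% of windows, or 9.55% of genes, and in 7 of the 70, Cish and Alas1 among them. It was in 0 of the 7 that moved with Saa2. The motifs were picked after the co-moving genes were known, and a match is a description of the sequence.

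The most variable gene was Saa2 with a residual SD of 2.81, followed by Lcn2 (2.79), Dbp (2.66), Moxd1 (2.48), Cyp4a14 (2.38), Mt2 (2.36) and Mt1 (2.31). Over all 18193 genes the median residual SD was 0.22, the 95th percentile 0.54 and the 99th percentile 0.82, while the members had a median of 1.23. A total of 11 members reached 2 and 27 reached 1.5. In 32 of them the highest and the lowest mouse of a duration were at least 4 log2 units apart. A single mouse held over 50% of the sum of squares in 13 members, such as Prtn3, Orm2 and Lcn2. Just inside the threshold were Trim34a, Cyp2c39 and Gm16551 (each 1.0), and just outside, with values that also round to 1.0, were Per2, Arrdc3 and Corin. All 88 members passed the series' filter on low values, 80 were above background on all 10 vehicle arrays and 8 fell below it on at least 1.

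**Figure D1:**
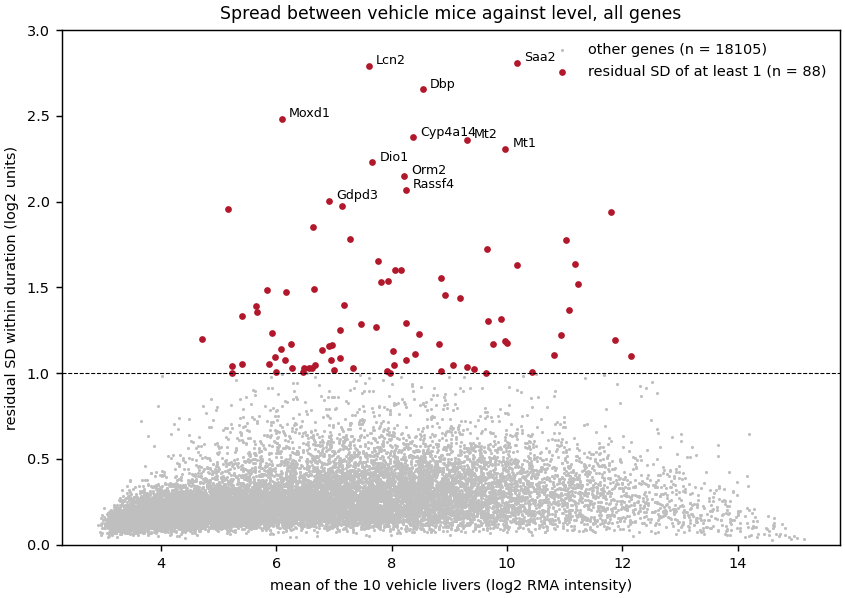
Each point is a gene, with its mean over the 10 vehicle livers (log2 RMA intensity) on the x axis and its residual SD within duration (log2 units) on the y axis; the dashed line marks the threshold of 1. The 88 genes above the line are spread over most of the range of levels, with Saa2, Lcn2 and Dbp at the top.

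Of the 88 members, 57 fell into 12 sets of 3 or more genes that rose and fell in the same mice, and 31 into none. Sets were formed by average linkage of Pearson's r over the 10 residuals at a linkage r of at least 0.7, so the r within a set is a description. The number of close pairs was near that of any genes on these arrays: 212 of 3828 pairs of members had an r of at least 0.7 (5.54%), against 4.32% of all pairs of genes, and 126 had -0.7 or less (3.29%), against 3.67%. In exact permutation tests within duration, none of the 3828 pairs passed an adjusted p of 0.05. The smallest adjusted p was 0.0665 for Pearson's r, reached by 4 pairs at the smallest p that the 14400 arrangements can give (6.94e-05), and 0.133 for Spearman's rho. An unadjusted p under 0.05 was found for 405 of the 3828 pairs (10.6%), and the matching share over all pairs of genes was not computed. What follows gives each set with its genes and mice, and the test of its closest pair, which was picked for its r.

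**Figure D2:**
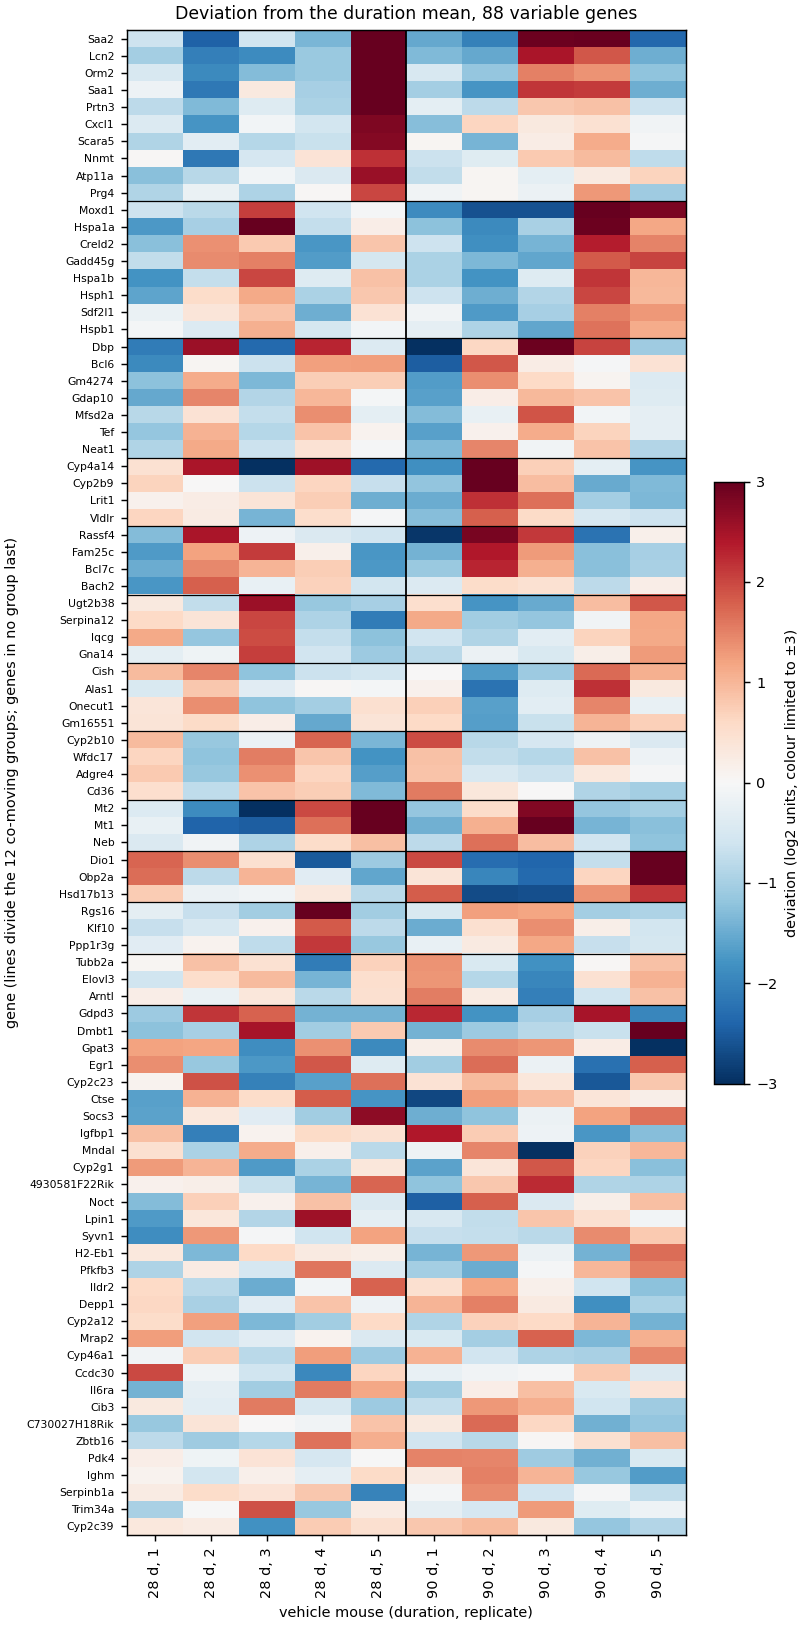
Rows are the 88 genes, ordered by set and then by residual SD, and columns are the 10 vehicle mice; colour is the deviation from the mean of the mouse's duration in log2 units, limited to ±3. Blocks of colour mark genes that moved together, such as the Saa2 set in 28-day mouse 5 and the Moxd1 set in 90-day mice 4 and 5.

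The set with the most genes, 10, was led by Saa2 and held Lcn2, Orm2, Saa1, Prtn3, Cxcl1, Scara5, Nnmt, Atp11a and Prg4. Of these, Saa2, Lcn2, Orm2 and Saa1 were on the list of acute-phase proteins. Saa2 and Saa1 encode serum amyloid A, which hepatocytes release in inflammation. Saa2 read 9.15, 7.33, 9.17, 8.40 and 14.78 at 28 days and 9.06, 8.57, 13.54, 13.54 and 8.22 at 90 days. Its 3 high mice were 28-day mouse 5 and 90-day mice 3 and 4, and the highest 28-day mouse was 175-fold above the lowest. Saa1 read 11.43, 9.43, 11.87, 10.58 and 14.57 at 28 days and 11.02, 10.26, 14.18, 14.14 and 10.58 at 90 days, with the same 3 mice on top. The gene models leave 8651 bases between them on chromosome 7 and their r was 0.980 (exact permutation, adjusted p = 0.114), but they are near-identical copies, so their probes may share signal.

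Lcn2, for lipocalin-2, which withholds iron from bacteria, read 6.58, 5.54, 5.70, 6.49 and 13.65 at 28 days and 6.31, 6.08, 10.07, 9.48 and 6.16 at 90 days. Orm2, an orosomucoid that carries drugs in plasma, read 7.69, 6.27, 6.86, 7.05 and 12.98 at 28 days and 7.78, 7.12, 9.78, 9.61 and 7.07 at 90 days. In both, 28-day mouse 5 stood far above the other 4, and 90-day mice 3 and 4 were above the other 3 by a smaller step. Without 28-day mouse 5 the residual SD fell to 1.54 for Lcn2 and to 1.08 for Orm2. Their r was 0.990 and their rho 0.976 (exact permutation p = 0.000139 and 0.000278, adjusted p = 0.0886 and 0.133). It was 0.995 at 28 days, 0.983 at 90 days and 0.956 without the 2 mice farthest from the median of Lcn2.

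Prtn3, the neutrophil protease proteinase 3, read 6.17, 5.63, 6.55, 6.0 and 10.39 at 28 days and 6.07, 5.59, 7.16, 7.24 and 5.74 at 90 days. At 90 days, where its SD was 0.79, mice 3 and 4 were the highest. Over 50% of its sum of squares lay in 28-day mouse 5, and without that mouse its residual SD was 0.65. Cxcl1, a chemokine that draws neutrophils, read 9.68, 8.32, 9.99, 9.52 and 12.86 at 28 days and 8.0, 9.90, 9.56, 9.72 and 9.16 at 90 days and was high in the same mouse, with no step in 90-day mice 3 and 4. Nnmt, which methylates nicotinamide, read 7.19, 5.03, 6.67, 7.58 and 9.37 at 28 days and 6.41, 6.69, 7.84, 8.01 and 6.30 at 90 days. The remaining Scara5, a ferritin receptor, Atp11a, a phospholipid flippase, and Prg4, for lubricin, had residual SDs of 1.27, 1.14 and 1.04, and each was highest in 28-day mouse 5. Socs3, the feedback inhibitor of interleukin-6 signalling, fell into no set but was also highest there at 28 days: it read 6.02, 7.96, 7.28, 6.58 and 10.31 at 28 days and 6.53, 6.79, 7.81, 9.20 and 9.62 at 90 days. Of 24 acute-phase genes measured, 5 were members (20.8%, against 0.484% of all genes), with a list median residual SD of 0.55 against 0.22 for all genes. The median r between the 5 was 0.89. Residual SD is the value the rule used, and the lists were chosen with earlier results of these data known. Counts of members and median SDs of this and later lists are therefore descriptions, to be read beside the 0.484% of all genes.

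Marker levels of other cell types were also read in these mice. Among 12 neutrophil markers other than Lcn2, the mean level was 5.03 to 5.29 at 28 days, with 5.23 in mouse 5, and 4.80 to 5.05 at 90 days. Elane and Mpo, which share the granules of Prtn3, read 5.10 and 4.91 in 28-day mouse 5, within the range of the other mice. S100a8 and S100a9 read 7.10 and 7.29 there, against 5.64 to 6.59 and 5.67 to 6.84 in the other 28-day mice. Ngp and Ltf read 4.38 and 4.66, against 4.39 to 5.00 and 4.47 to 5.34. The mean of 15 endothelial markers was 6.47 in 28-day mouse 5 against 7.41 to 7.65 in the others, and 6.83 in 90-day mouse 3 against 7.17 to 7.40. In 90-day mouse 4, also high in Saa2, it was 7.27. The part of these markers in the Saa2 set was not tested. In bulk tissue, fewer cells of a type and less RNA per cell cannot be told apart.

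Moxd1 led a set of 8 with Hspa1a, Creld2, Gadd45g, Hspa1b, Hsph1, Sdf2l1 and Hspb1, of which 6, all but Moxd1 and Gadd45g, were on the list for ER stress and heat shock. Hspa1a and Hspa1b encode the inducible form of HSP70. Hspa1b read 9.24, 10.32, 13.04, 10.65 and 11.90 at 28 days and 10.48, 9.64, 11.04, 13.57 and 12.42 at 90 days. Hspa1a, its copy with 10120 bases between them on chromosome 17, read 5.40, 6.13, 10.39, 6.40 and 7.32 at 28 days and 5.92, 5.24, 6.16, 10.08 and 8.31 at 90 days. In both, 28-day mouse 3 and 90-day mouse 4 were highest of their durations and 90-day mouse 5 was next. Their r was 0.965 and their rho 0.976 (exact permutation p = 6.94e-05 and 0.000208, adjusted p = 0.0665 and 0.133), with 0.942 at 28 days, 0.986 at 90 days and 0.959 without the 2 farthest mice. The copies may share probe signal.

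Hsph1, for HSP110, read 8.10, 10.22, 10.82, 8.73 and 10.49 at 28 days and 9.50, 8.65, 9.23, 12.12 and 11.09 at 90 days, and Hspb1, a small heat shock protein, had residual SDs of 0.63 at 28 days and 1.35 at 90 days. Creld2, a protein secreted under ER stress, read 8.89, 11.50, 10.93, 8.39 and 10.97 at 28 days and 9.57, 8.37, 8.81, 12.55 and 11.70 at 90 days. Sdf2l1, a partner of ER chaperones, read 9.90, 10.46, 10.96, 8.63 and 10.53 at 28 days and 9.80, 8.21, 8.92, 11.41 and 11.21 at 90 days. At 90 days all 3 were highest in mice 4 and 5, while at 28 days Creld2 was lowest in mice 1 and 4 and had no single high mouse. Syvn1, an ER ubiquitin ligase that fell into no set, read 7.68, 10.86, 9.51, 8.95 and 10.75 at 28 days and 9.69, 9.65, 9.58, 11.80 and 11.17 at 90 days and was again highest in 90-day mice 4 and 5. Of 30 genes listed for ER stress and heat shock, 7 were members (23.3%, against 0.484% of all genes). The list median residual SD was 0.62 against 0.22 for all genes, again a description, and the median r between the 7 was 0.79.

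Moxd1, a monooxygenase transcribed more in male than in female mouse liver, had the widest range of the set. It read 4.41, 4.24, 7.12, 4.44 and 5.02 at 28 days and 5.25, 4.54, 4.53, 11.44 and 9.96 at 90 days. It lay between 4.24 and 5.02 in 6 mice, and 90-day mouse 4 was 121-fold above the lowest mouse of its duration. Gadd45g, a growth arrest gene, read 7.24, 9.39, 9.47, 6.30 and 7.45 at 28 days and 7.21, 6.80, 6.60, 9.99 and 10.17 at 90 days. The mean of 21 genes expressed more in male liver, Moxd1 left out, was 11.44 and 11.50 in 90-day mice 4 and 5, against 10.75 to 11.32 in the other 90-day mice, and 11.16 in 28-day mouse 3 against 10.67 to 11.09. The mean of 29 genes expressed more in female liver was 5.76 and 5.77 in 90-day mice 4 and 5 against 6.12 to 6.50, and 5.84 in 28-day mouse 3 against 5.89 to 6.42. The part of these lists in the set was not tested.

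Dbp led a set of 7 with Bcl6, Gm4274, Gdap10, Mfsd2a, Tef and Neat1, of which Dbp and Tef were on the list of clock genes. They encode related transcription factors that carry the signal of the clock to metabolic genes. Dbp read 5.68, 10.34, 5.45, 10.05 and 7.36 at 28 days and 4.78, 9.93, 12.23, 11.32 and 8.23 at 90 days. The lowest 90-day mouse was 175-fold below the highest, and at 28 days mice 2 and 4 were above 10 while the other 3 were below 7.4. Tef read 7.76, 9.96, 8.08, 9.79 and 9.04 at 28 days and 8.31, 10.07, 11.06, 10.61 and 9.66 at 90 days, with the same order of mice at 90 days. Their r was 0.984 and their rho 0.988 (exact permutation p = 0.000208 and 0.000347, adjusted p = 0.114 and 0.133), with 0.975 at 28 days, 0.997 at 90 days and 0.972 without the 2 farthest mice. Gdap10 and Tef, the closest pair of the set, had an r of 0.984 and a rho of 0.964 (exact permutation p = 6.94e-05 for both, adjusted p = 0.0665 and 0.133), with 0.991 and 0.992 within the durations and 0.974 without the 2 farthest mice.

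Bcl6, a transcriptional repressor, read 7.04, 9.0, 8.28, 10.17 and 10.20 at 28 days and 6.45, 10.79, 9.15, 8.88 and 9.36 at 90 days; Mfsd2a, which carries lysophosphatidylcholine into cells, had residual SDs of 0.92 and 1.16 at 28 and 90 days, and Neat1, the RNA core of paraspeckles, of 0.82 and 1.17. A smaller set ran the other way: Tubb2a, a tubulin, Elovl3, an elongase of very long fatty acids, and Arntl, which encodes BMAL1, the positive arm of the clock. Arntl read 8.52, 8.11, 8.65, 7.50 and 8.80 at 28 days and 9.29, 8.01, 5.72, 7.16 and 8.64 at 90 days. It was lowest in 90-day mice 3 and 4 and in 28-day mouse 4, where Dbp was high. Elovl3 read 11.23, 12.35, 12.78, 10.43 and 12.33 at 28 days and 13.23, 11.06, 9.95, 12.37 and 12.95 at 90 days and Tubb2a read 10.88, 11.69, 11.29, 8.72 and 11.51 at 28 days and 12.40, 10.59, 9.23, 11.09 and 11.93 at 90 days. Their r was 0.928 and their rho 0.939 (exact permutation p = 0.000486 and 0.00132, adjusted p = 0.124 and 0.253), with 0.884, 0.978 and 0.857 at 28 days, at 90 days and without the 2 farthest mice.

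The mean profile of this set had an r of -0.86 with that of Rgs16, Klf10 and Ppp1r3g and of -0.67 with that of the Dbp set. Rgs16, a brake on G protein signalling, read 5.84, 5.45, 5.09, 9.23 and 5.09 at 28 days and 5.75, 7.43, 7.40, 5.18 and 5.28 at 90 days; Klf10, a transcription factor, read 6.17, 6.36, 6.99, 8.69 and 6.06 at 28 days and 5.87, 7.84, 8.75, 7.52 and 6.81 at 90 days; and Ppp1r3g, which brings protein phosphatase 1 to glycogen, read 4.78, 5.24, 4.37, 7.25 and 4.0 at 28 days and 5.13, 5.61, 6.51, 4.67 and 4.83 at 90 days. At 28 days all 3 were highest in mouse 4, without which the residual SDs of Rgs16 and Ppp1r3g were 0.88 and 0.66. Rgs16 and Ppp1r3g had an r of 0.941 and a rho of 0.927 (exact permutation p = 0.00194 and 0.0016, adjusted p = 0.199 and 0.255), and 0.958, 0.897 and 0.919 at 28 days, at 90 days and without the 2 farthest mice. Of 21 clock genes measured, 3 were members, Dbp, Tef and Arntl, with a list median residual SD of 0.63. The part of the time of day was not tested.

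**Figure D3:**
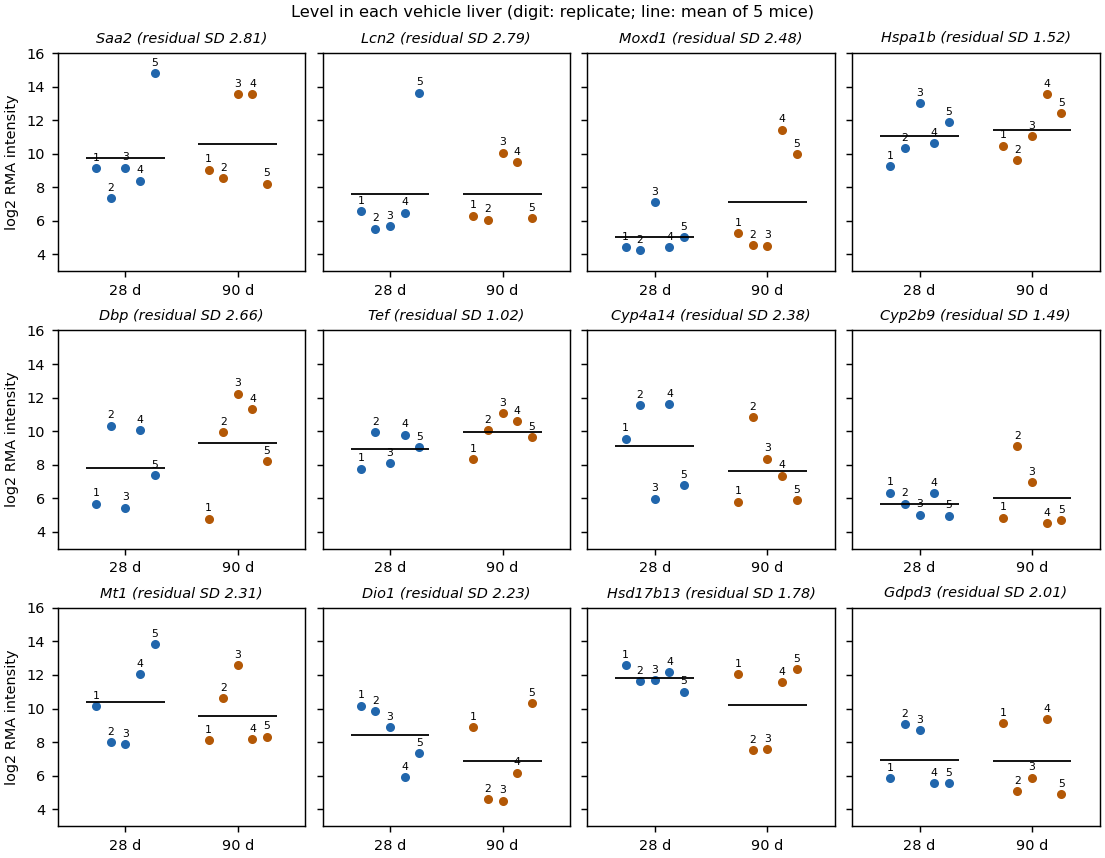
Each panel shows the level of 1 gene (log2 RMA intensity, y axis) in the vehicle livers of each duration (x axis); digits are mouse numbers and lines are means of 5 mice. Saa2 and Lcn2 stand out in 28-day mouse 5, Moxd1 and Hspa1b in 90-day mouse 4, and Hsd17b13 is low in 90-day mice 2 and 3 only.

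Metallothioneins, small proteins that bind zinc and copper, spread over 137-fold for Mt2 and 61.1-fold for Mt1 at 28 days. Mt2 read 9.35, 7.88, 6.37, 11.74 and 13.47 at 28 days and 7.69, 9.40, 11.63, 7.70 and 7.83 at 90 days. Mt1, its neighbour with 5315 bases between them on chromosome 8, read 10.16, 7.98, 7.90, 12.05 and 13.83 at 28 days and 8.11, 10.63, 12.59, 8.17 and 8.32 at 90 days. Mice 4 and 5 at 28 days and mouse 3 at 90 days were the highest in both. Their r was 0.979 and their rho 1.0 (exact permutation p = 6.94e-05 for both, adjusted p = 0.0665 and 0.133), and 0.983, 0.993 and 0.952 at 28 days, at 90 days and without the 2 farthest mice. The Mt1 probe set is of a kind that can match more than 1 transcript, and a second Mt1 probe set of another kind had a residual SD of 0.76 with an r of 0.95 to the first. Neb, which encodes the muscle protein nebulin, completed the set with a residual SD of 1.01. Of 16 genes for metal handling, Mt1 and Mt2 were the members, with a list median of 0.53. Lcn2 and Mt2, both also listed for the glucocorticoid response, had an r of 0.716 and a rho of 0.733 (exact permutation p = 0.0224 and 0.0427, adjusted p = 0.419 and 0.533); at 28 days it was 0.790 and at 90 days 0.50, and without 28-day mouse 5 and 90-day mouse 3 it was 0.118, so in the vehicle livers the relation rested on those mice. In the treated livers the r was 0.534 and the rho 0.830 (exact permutation p = 0.195 and 0.0084, adjusted p = 0.311 and 0.042), and without the 2 arrays that stood apart the r was 0.828 (exact permutation p = 0.0278, adjusted p = 0.134).

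Genes of fatty acid and drug oxidation varied in several patterns. Cyp4a14, which hydroxylates fatty acids and is a classical target of PPAR alpha, read 9.55, 11.54, 5.97, 11.63 and 6.77 at 28 days and 5.80, 10.85, 8.36, 7.35 and 5.89 at 90 days. Mice 2 and 4 at 28 days and mouse 2 at 90 days were the 3 highest, and 4 mice were below 7. It moved with Cyp2b9, Lrit1 and Vldlr. Cyp2b9, a P450 transcribed more in female liver, read 6.33, 5.68, 5.02, 6.31 and 4.96 at 28 days and 4.84, 9.13, 6.94, 4.51 and 4.70 at 90 days, and without 90-day mouse 2 its residual SD was 0.90. Vldlr, the receptor for very low density lipoprotein, read 7.51, 7.12, 5.48, 7.39 and 6.85 at 28 days and 5.11, 8.17, 6.95, 5.90 and 5.74 at 90 days. Cyp2b9 and Lrit1 had an r of 0.891 and a rho of 0.806 (exact permutation p = 0.011 and 0.0367, adjusted p = 0.331 and 0.529), and Cyp2b9 and Vldlr, both of the female-biased list, 0.886 and 0.818 (exact permutation p = 0.0034 and 0.0105, adjusted p = 0.25 and 0.397). Within the durations these were 0.590 and 0.947 for the first pair and 0.772 and 0.954 for the second, and 0.795 and 0.758 without the 2 farthest mice.

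Of 25 genes of fatty acid oxidation, the members were Cyp4a14 and Cd36, the fatty acid translocase, and they did not move together: r was 0.05 and rho 0.03 (exact permutation p = 0.895 and 0.948, adjusted p = 0.981 and 0.993), with 0.06 and 0.03 within the durations and 0.19 without the 2 farthest mice. Of 29 female-biased genes measured, Cyp2b9, Cyp2b10, Vldlr and Cyp2c39 were members, and of 22 male-biased genes Moxd1, Ugt2b38 and Elovl3. Moxd1 and Ugt2b38 had an r of 0.75 and a rho of 0.721 (exact permutation p = 0.016 and 0.0605, adjusted p = 0.355 and 0.565), with 0.874 and 0.806 within the durations and 0.755 without the 2 farthest mice. Cyp2b9 and Cyp2c39 had 0.565 and 0.467 (exact permutation p = 0.096 and 0.264, adjusted p = 0.565 and 0.717), with 0.565 and 0.667 within the durations and 0.486 without the 2 farthest mice.

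Ugt2b38, a glucuronosyltransferase, led a set with Serpina12, Iqcg and Gna14. It read 9.08, 8.06, 11.35, 7.65 and 7.80 at 28 days and 9.41, 7.15, 7.41, 9.83 and 10.77 at 90 days, highest in 28-day mouse 3 and 90-day mouse 5. Serpina12, for the serpin vaspin, read 12.06, 11.84, 13.47, 10.53 and 9.36 at 28 days and 11.85, 9.66, 9.54, 10.59 and 11.87 at 90 days. Gna14, a G protein subunit, read 6.09, 6.26, 8.45, 5.80 and 5.28 at 28 days and 5.96, 6.59, 6.30, 6.93 and 8.05 at 90 days, and its residual SD was 0.67 without 28-day mouse 3. Iqcg was below background on 4 of the 10 arrays. Ugt2b38 and Iqcg had an r of 0.855 and a rho of 0.673 (exact permutation p = 0.00271 and 0.0165, adjusted p = 0.222 and 0.426), with 0.916 and 0.834 within the durations and 0.655 without the 2 farthest mice.

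Cyp2b10, the P450 that phenobarbital induces most clearly in mouse liver, also varied without the drug. It read 6.99, 4.89, 5.85, 7.78 and 4.66 at 28 days and 7.76, 4.98, 5.31, 5.66 and 5.37 at 90 days, with mice 4 and 1 on top at 28 days and mouse 1 at 90 days. It moved with Wfdc17, Adgre4 and Cd36. Wfdc17, a small secreted protein of macrophages, read 10.44, 8.60, 11.33, 10.63 and 8.0 at 28 days and 8.72, 7.13, 7.01, 8.72 and 7.69 at 90 days, and Adgre4, a macrophage receptor of the F4/80 family, read 7.79, 5.86, 8.38, 7.64 and 5.34 at 28 days and 6.81, 5.46, 5.30, 6.28 and 5.91 at 90 days. Both were lowest in mice 5 and 2 at 28 days and in mice 2 and 3 at 90 days. Their r was 0.981 and their rho 0.952 (exact permutation p = 0.000347 for both, adjusted p = 0.114 and 0.133), with 0.996 and 0.949 within the durations and 0.962 without the 2 farthest mice. The 19 Kupffer cell and macrophage markers, all above background, had means of 8.27, 7.68, 8.11, 8.39 and 7.43 in 28-day mice 1 to 5 and 8.0, 7.21, 7.10, 7.59 and 7.58 in 90-day mice 1 to 5, lowest in the same mice. No marker of that list was a member, and its part in this set was not tested.

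Of 31 P450 enzymes of drug metabolism, 5 were members: Cyp2c23, Cyp2b9, Cyp2b10, Cyp2a12 and Cyp2c39. The list median residual SD was 0.33. Cyp2c23, an epoxygenase of arachidonic acid, read 10.65, 12.44, 8.51, 8.91 and 12.20 at 28 days and 12.25, 12.78, 12.16, 9.28 and 12.63 at 90 days, with 28-day mice 3 and 4 and 90-day mouse 4 lowest of their durations. Cyp2a12 read 12.64, 13.32, 10.75, 11.06 and 12.69 at 28 days and 11.32, 12.90, 12.82, 13.24 and 10.81 at 90 days, low in mice 3 and 4 at 28 days and in mice 5 and 1 at 90 days. Cyp2g1, with 207892 bases between them in the Cyp2 cluster of chromosome 7, read 6.60, 6.35, 3.64, 4.38 and 5.68 at 28 days and 4.41, 6.37, 7.88, 6.66 and 4.75 at 90 days, and their r was 0.892 (exact permutation, adjusted p = 0.28). Cyp2b9 and Cyp2b10, with 246725 bases between them in the same cluster, had an r of -0.12 (exact permutation, adjusted p = 0.948). Over the genome, 15 pairs of members had their leftmost ends within 1 Mb of each other, and 5 of these had an r of at least 0.7: Saa1 with Saa2, Mt1 with Mt2, Hspa1a with Hspa1b, Cyp2g1 with Cyp2a12, and Onecut1 with Gm16551. Over all pairs of members the share was 5.54%. Saa1 with Saa2 and Hspa1a with Hspa1b may share probe signal, and the Mt1 probe set is of a kind that can match more than 1 transcript. The part of position was not tested.

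Cish, Alas1, Onecut1 and Gm16551 formed a set of 4. Cish, a feedback inhibitor induced through STAT5, read 8.05, 8.55, 5.89, 6.45 and 6.54 at 28 days and 7.84, 6.16, 6.75, 9.54 and 8.90 at 90 days. Onecut1, the hepatocyte factor HNF6, read 7.83, 8.86, 6.27, 6.46 and 7.95 at 28 days and 9.28, 6.95, 8.25, 10.05 and 8.35 at 90 days, and its neighbour Gm16551 had residual SDs of 0.87 and 1.12 at 28 and 90 days. Alas1, the rate-limiting enzyme of heme synthesis, read 9.33, 10.58, 9.43, 9.82 and 9.71 at 28 days and 9.86, 7.50, 9.34, 11.92 and 10.03 at 90 days, with 90-day mouse 4 highest and 90-day mouse 2 lowest. Cish and Onecut1 had an r of 0.822 and a rho of 0.879 (exact permutation p = 0.0112 and 0.00458, adjusted p = 0.331 and 0.363), with 0.846 and 0.808 within the durations and 0.655 without the 2 farthest mice.

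Dio1, Obp2a and Hsd17b13 moved together. Dio1, the deiodinase that makes active thyroid hormone, read 10.17, 9.84, 8.90, 5.92 and 7.34 at 28 days and 8.88, 4.60, 4.51, 6.18 and 10.30 at 90 days. Obp2a, an odorant-binding protein, read 7.64, 5.18, 6.97, 5.62 and 4.41 at 28 days and 7.72, 5.37, 4.99, 7.96 and 10.57 at 90 days. Hsd17b13, a lipid droplet enzyme of hepatocytes, read 12.58, 11.66, 11.71, 12.15 and 11.01 at 28 days and 12.03, 7.54, 7.57, 11.56 and 12.37 at 90 days, 28.5-fold apart at 90 days, where mice 2 and 3 were low for all 3 genes. A second Hsd17b13 probe set turned the other way, with an r of -0.79 to this one and its highest values in those mice, so the direction for Hsd17b13 holds for the brighter probe set only. Obp2a and Hsd17b13 had an r of 0.852 and a rho of 0.842 (exact permutation p = 0.00208 and 0.00625, adjusted p = 0.199 and 0.397), with 0.787 and 0.904 within the durations and 0.75 without the 2 farthest mice.

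Rassf4, Fam25c, Bcl7c and Bach2 made up the last set. Rassf4, of the RAS association domain family, read 6.24, 10.0, 7.38, 7.11 and 6.96 at 28 days and 6.03, 11.79, 11.06, 6.74 and 9.10 at 90 days. Fam25c read 8.48, 11.40, 12.29, 10.34 and 8.45 at 28 days and 7.67, 11.49, 10.38, 7.85 and 8.09 at 90 days and Bcl7c read 6.59, 9.51, 9.08, 8.81 and 6.35 at 28 days and 6.71, 10.10, 8.89, 6.56 and 6.86 at 90 days. In Fam25c the mice fell into a high level, with mice 2, 3 and 4 at 28 days and 2 and 3 at 90 days, and a low level in the other 5, more than 1.5 log2 units below. Bcl7c divided the same mice. Bach2, a transcriptional repressor, was highest in mouse 2 at both durations. Fam25c and Bcl7c had an r of 0.964 and a rho of 0.939 (exact permutation p = 0.00181 and 0.00222, adjusted p = 0.197 and 0.315), with 0.930 and 0.996 within the durations and 0.981 without the 2 farthest mice.

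Several genes outside the sets also read as high or low with few mice between. Gdpd3, a phosphodiesterase that makes lysophospholipids, read 5.86, 9.09, 8.70, 5.53 and 5.54 at 28 days and 9.14, 5.08, 5.87, 9.36 and 4.91 at 90 days, with mice 2 and 3 at 28 days and 1 and 4 at 90 days near 9 and the other 6 below 6. Gpat3, which starts triglyceride synthesis, read 8.54, 8.50, 5.47, 8.70 and 5.43 at 28 days and 7.39, 8.63, 8.54, 7.45 and 4.09 at 90 days, with 28-day mice 3 and 5 and 90-day mouse 5 low. Dmbt1, a mucosal scavenger receptor protein, read 3.94, 4.19, 7.65, 4.13 and 5.96 at 28 days and 3.73, 4.06, 4.31, 4.49 and 9.16 at 90 days; it was below background on 2 arrays and at 9.16 in 90-day mouse 5, without which its residual SD was 1.23. Ctse, for the protease cathepsin E, read 6.09, 8.76, 8.28, 9.55 and 5.97 at 28 days and 5.85, 9.85, 9.52, 8.96 and 8.76 at 90 days and was near 6 in 3 mice.

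Genes of fasting, feeding and early response varied without a common pattern. Igfbp1, which binds insulin-like growth factors and rises when insulin is low, read 10.78, 7.83, 10.0, 10.45 and 10.35 at 28 days and 10.89, 9.24, 8.34, 6.73 and 7.21 at 90 days. Lpin1, a phosphatidate phosphatase raised in fasting, read 6.74, 8.78, 7.55, 10.99 and 8.15 at 28 days and 8.03, 7.78, 9.33, 9.0 and 8.42 at 90 days, and without 28-day mouse 4 its residual SD was 0.75. Pdk4, which shuts pyruvate out of oxidation in fasting, ranged over 6.49 to 7.40 at 28 days and 5.60 to 8.53 at 90 days. Of 21 genes of this list, these 3 and Ppp1r3g were members, and the median r between the 4 was -0.03. Lpin1 and Ppp1r3g had an r of 0.744 and a rho of 0.455 (exact permutation p = 0.0554 and 0.243, adjusted p = 0.478 and 0.711), with 0.858 and 0.302 within the durations and 0.466 without the 2 farthest mice. Egr1, an immediate early transcription factor, read 8.82, 6.31, 5.70, 9.29 and 7.04 at 28 days and 7.05, 9.76, 7.91, 5.84 and 9.88 at 90 days. With Klf10 it had an r of 0.268 and a rho of 0.248 (exact permutation p = 0.475 and 0.517, adjusted p = 0.81 and 0.871), with 0.455 and 0.100 within the durations and 0.0969 without the 2 farthest mice.

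H2-Eb1, a chain of MHC class II, read 7.27, 5.60, 7.56, 7.23 and 7.14 at 28 days and 5.56, 8.26, 6.79, 5.54 and 8.63 at 90 days, and was the only member of 22 listed MHC genes. Ighm, the heavy chain of immunoglobulin M, read 8.37, 7.71, 8.43, 8.0 and 8.84 at 28 days and 9.73, 10.97, 10.47, 8.32 and 7.79 at 90 days, with mice 1, 2 and 3 at 90 days on top. The mean of 14 B cell and plasma cell markers, Ighm among them, lay between 5.11 and 5.53. Trim34a, of the TRIM family, read 4.51, 5.47, 7.39, 4.35 and 5.74 at 28 days and 4.70, 4.47, 6.25, 4.62 and 4.83 at 90 days, and was the only member of 33 genes listed for copy number or sequence differences between mouse strains. Mndal, of the interferon-inducible gene cluster, fell to 3.93 in 90-day mouse 3, against 6.48 to 8.54 in the other 9. No member was found among 34 interferon-stimulated, 32 cell cycle, 23 lipogenesis, 19 cholesterol, 19 bile acid, 18 ribosomal protein or 15 NRF2 target genes, nor among the markers of Kupffer, stellate, endothelial, bile duct or red blood cells, pancreas, adipose tissue or muscle. At the 0.484% of all genes, lists of these sizes would seldom hold one.

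A second probe set on the same arrays was found for 41 of the 88 members, and in 29 at least 1 such probe set followed the main with an r of at least 0.7, against 29.8% of 9010 genes with several probe sets. The median of the best r was 0.97. Dbp and Lpin1 were followed at 0.99. In Bcl7c none of the other 3 probe sets followed (r of 0.12 at most, residual SDs of 0.12 to 0.19), and in Ctse, Il6ra, Pfkfb3 and Trim34a the other probe set had an r between -0.23 and -0.48. Hsd17b13 read in opposite directions: its other probe set was at 5.81, 8.61, 8.93, 4.96 and 8.17 at 28 days and 5.56, 10.0, 9.85, 8.32 and 5.64 at 90 days, with a residual SD of 1.99 and an r of -0.79 to the main. That r was -0.71 at 28 days, -0.91 at 90 days and -0.78 in the treated livers. The 2 mice lowest in the main probe set at 90 days were thus the highest in the other, and a mean of both would give a residual SD of 0.62.

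The treated mice, which the rule did not use, were read for the same genes. Of the 88 members, 39 had a residual SD of at least 1 among the 10 treated livers (44.3%), against 2.62% of all genes. Without the 2 arrays that stood apart it was 22 (25%), against 0.253% of all genes, and without replicate 5 at 28 days alone it was 28. Among the genes above 1 in both were Dmbt1, with 2.01 among treated and 1.96 among vehicle livers, Hsd17b13 with 1.87 and 1.78, Moxd1 with 2.02 and 2.48, and Gdpd3 with 1.72 and 2.01. Without the 2 arrays these 4 lay between 1.65 and 2.28. Saa2, by contrast, had 0.52 among treated livers, Saa1 0.60, Orm2 0.72, Prtn3 0.25 and Gpat3 0.24. No test of the difference in spread between vehicle and treated mice was made. The treated mice differ from the vehicle mice by the drug as well as by animal.

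**Figure D4:**
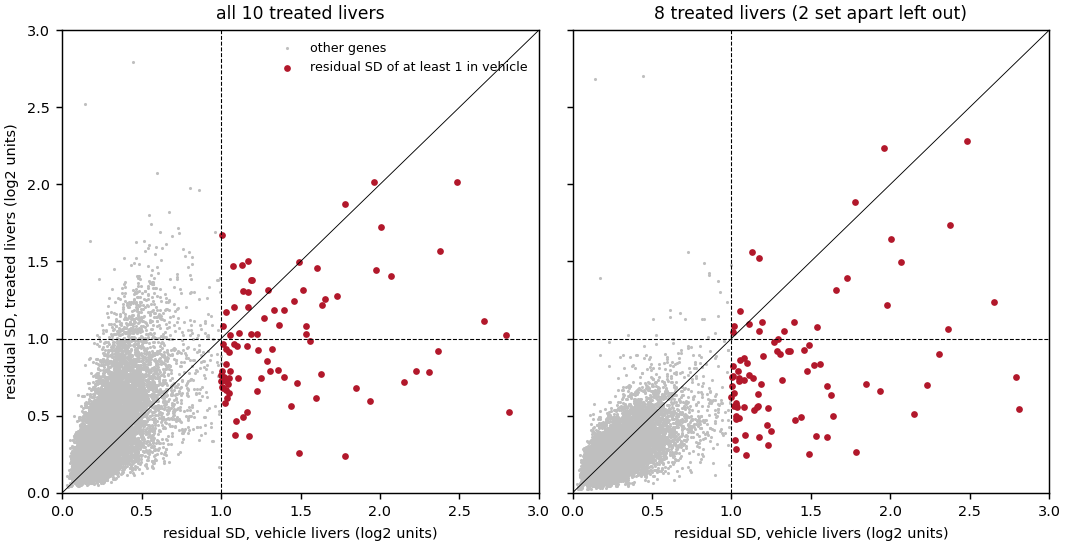
Each point is a gene, with its residual SD among vehicle livers on the x axis and among treated livers on the y axis (log2 units), for all 10 treated livers on the left and for 8 on the right; dashed lines mark 1 and the diagonal marks equal spread. Of the 88 genes right of the dashed line, 39 lie above 1 on the left and 22 on the right, with Saa2 far below the diagonal and Dmbt1 near it.

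The 20 pairs named above were tested again in the treated livers. Their r was positive in 18, and 7 passed an adjusted p of 0.05 over the 20 pairs by the exact permutation test. By rho 6 passed: Cish with Onecut1 (exact permutation, adjusted p = 0.131) and Rgs16 with Ppp1r3g (exact permutation, adjusted p = 0.144) did not, and Lcn2 with Mt2 (exact permutation, adjusted p = 0.042) did. Mt1 with Mt2 had an r of 0.917 (exact permutation p = 0.000833, adjusted p = 0.00648), Hspa1a with Hspa1b 0.921 (exact permutation p = 0.000972, adjusted p = 0.00648) and Wfdc17 with Adgre4 0.967 (exact permutation p = 0.000764, adjusted p = 0.00648). Fam25c with Bcl7c had 0.914 (exact permutation p = 0.00132, adjusted p = 0.0066), Cish with Onecut1 0.835 (exact permutation p = 0.00431, adjusted p = 0.0172), Cyp2b9 with Cyp2c39 0.810 (exact permutation p = 0.0084, adjusted p = 0.028) and Rgs16 with Ppp1r3g 0.798 (exact permutation p = 0.0174, adjusted p = 0.0496). In the treated livers the second Mt1 probe set followed the first at an r of 0.48 only, or 0.52 without the 2 arrays that stood apart. The other Bcl7c probe sets had an r of -0.12 at most to the main, and Hspa1a and Hspa1b may share probe signal. Dbp with Tef had 0.142, Gdap10 with Tef 0.420 and Lcn2 with Orm2 0.697 (exact permutation, adjusted p = 0.837, 0.311 and 0.161). Without the 2 arrays no pair passed: the smallest adjusted p was 0.0694, the 576 arrangements allow no p below 0.00174, and 7 pairs had an unadjusted p under 0.05. Without replicate 1, 2 or 3 of the treated 90-day group, 4, 3 and 4 pairs passed.

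Over whole sets, the median r between members was 0.79 among treated livers for the Cish set, against 0.78 in vehicle livers. It was lower than in vehicle livers for the other 11 sets. It was 0.53 against 0.76 for the Rassf4 set, 0.49 against 0.82 for the Tubb2a set, 0.43 against 0.81 for the Dbp set and 0.43 against 0.85 for the Moxd1 set. For the Saa2 set it was 0.03 against 0.83. The other 6 sets lay between -0.08 and 0.27; the lowest was the Mt2 set, in which Mt1 and Mt2 kept their r but Neb did not follow. Without the 2 arrays the Moxd1 set had 0.60, the Rassf4 set 0.32 and the Cish set 0.81. The vehicle values were used to form the sets, so no test sets them against the treated ones.

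The spread of a member could differ between durations. A larger SD at 28 days was found for 37 members (42.0%), against 65.6% of all genes, and 43 had an SD of at least 1 at each duration. In limma's test of absolute residuals over all 18193 genes, none of the members passed, and 1 gene did (0.0055%): Cck, which is not a member and varied more at 28 days. An unadjusted p under 0.05 was found for 2997 of the 18193 genes. On simulated data with known changes in spread the test made no calls after adjustment at 5 mice per duration, so the lack of calls says nothing about whether the spreads differ. Nearest among the members were Hsd17b13, with an SD of 0.59 at 28 days and 2.45 at 90 days for its brighter probe set (limma, adjusted p = 0.0516), Pdk4 with 0.34 and 1.40 (limma, adjusted p = 0.0564) and Moxd1 with 1.19 and 3.30 (limma, adjusted p = 0.0613). The count over all genes was not stable: without 28-day mouse 1, 2, 3, 4 or 5 it was 182, 173, 284, 1632 and 151, and without 90-day mouse 1, 2, 3, 4 or 5 it was 5, 1, 0, 4 and 6.

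The first principal component of the vehicle residuals held 37.3% of their variance, and 9 members (10.2%) correlated with it at 0.7 or more in size, against 25.9% of all genes. These were Ugt2b38, Serpina12, Iqcg, Gm4274, Wfdc17, Gdap10, Il6ra, Adgre4 and Tef. The scores on this component were -32.0 and -39.0 in 28-day mice 1 and 3, and -16.4 to 35.3 in the others. With the component removed, 77 genes had a residual SD of at least 1, of which 69 were members.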

How the data were processed

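Liver RNA of 20 mice was measured on Affymetrix expression arrays after 3' in vitro transcription labelling, per the labels' protocols. The deposited values are log2 intensities per probe set that the authors made with RMA, per the submitters' processing notes; its version was not given in the sources used here. RMA forces arrays to a common distribution and flattens low signals, so differences between mice of dim genes are understated.

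Of 45037 probe sets, 34945 had 1 gene symbol in the platform annotation of 2016, 932 had several and 9160 had none. Each of 18193 genes was represented by its brightest probe set over all 20 arrays. The residual SD is the root of the residual sum of squares over 8 degrees of freedom. Pairs of genes were tested by exact two-sided permutation within duration, with Benjamini-Hochberg adjustment over 3828 pairs. Spread between durations was tested with limma 3.58.1 (R 4.3.3) with an intensity trend on absolute residuals. Python 3.11.15, numpy 2.4.6, pandas 2.3.3, scipy 1.17.1 and matplotlib 3.10.9 were used, and the code was tested on simulated data.

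Genes were named by rule: the 25 members with the largest residual SD, the 3 of each set with the highest mean r to the others, and up to 2 of each gene list. Others named in the text were chosen after their values were seen. Named pairs were the pair with the highest r in each set and the leading pair of each list. The members and the 37 gene lists were chosen with earlier results of these data known. Alternatives covered the choice of probe set, normalization (75th percentile, cyclic loess), filters, measures of spread and of agreement, the linkage threshold, the first principal component and each array left out. Replicate numbers of the titles were used as names only. Residual correlations of same-numbered vehicle arrays were 0.44, 0.12, -0.20, -0.20 and -0.04, and whether a number marks anything shared was not tested. Sequences were taken from RefSeq windows of GRCm38.p6.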

Additional observations from a re-analysis of the deposited data

Results flagged for a closer look

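In 16 of 110 combinations of a named gene and a duration, 1 of the 5 mice lay so far from the nearest other that the gap, as a share of the whole range, passed Dixon's 95% critical value of 0.71; chance gives about 1 in 20. The genes were chosen for a large spread, which favours such gaps. Genes that moved together were read in the same mice, so the combinations are not independent draws to set against that rate. In 28-day mouse 5 the gap was 0.872 for Lcn2, 0.805 for Prtn3, 0.788 for Orm2 and 0.753 for Saa2, all of them high, and 0.723 for Lrit1, which was low at 4.16 against 5.75 in the next mouse.

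In 28-day mouse 4, Rgs16 was high with a gap of 0.819 and Tubb2a low with 0.729. Moxd1 was high in 28-day mouse 3 with 0.729. In 28-day mouse 2, Igfbp1 was low with 0.734 and H2-Eb1 low with 0.784.

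At 90 days, Dmbt1 was high (0.860) and Gpat3 low (0.725) in mouse 5. Cyp2c23 was low in mouse 4 (0.822), Trim34a high in mouse 3 (0.797), and in mouse 1 Cyp2b10 was high (0.756) and Ctse low (0.727).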

How the results depend on the processing

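The number of genes with a residual SD of at least 1 was 88 and lay between 83 and 95 with any 1 vehicle array left out; it was 194 with all probe sets counted singly, named or not. With a robust spread it was 61, of which 42 were members. The 12 sets became 11 to 15 with 1 array left out, holding 54 to 63 genes in place of 57, and 4 sets of 22 genes at a linkage r of 0.8. Pairs that passed the permutation test were 0 with any array left out. Fewer arrangements remain then, so the smallest possible p lies above the 6.94e-05 of all 10 mice. A count of 0 was thus nearly fixed in advance and does not show stability. The pairs that passed were 6 with the kinds _x_at and _s_at set aside and 18 with the first principal component removed. Pairs with an r of at least 0.7 were 226 to 264. Without the 2 treated arrays that stood apart, 22 members reached 1 among treated livers and 0 named pairs passed; with 1 treated array left out these were 28 to 41 and 3 to 7. Second probe sets followed in 29 to 30 members. The count of genes whose spread differed between durations was 0 to 1632 with 1 array left out, 0 with a filter at the 25th percentile, 104 with one at the 50th, 60 without an intensity trend and 0 with squared residuals; the cause was not tested. With the replicate number as a block it was 1, as without. Of 933 alternative values of named residual SDs, 864 moved by less than the approximate standard error of the main SD and 69 by more. That standard error follows from the SD and its degrees of freedom and is smaller than the SD itself. Of 320 alternative values of named correlations, 305 kept direction and side of the threshold, 10 passed it newly and 5 turned: Cyp4a14 with Cd36 ranged from -0.19 to 0.31 with 1 array left out and was -0.082, -0.19, -0.026 and -0.076 without 28-day mouse 4, 28-day mouse 5, 90-day mouse 2 and 90-day mouse 5, and Egr1 with Klf10 ranged from -0.042, without 28-day mouse 4, to 0.40. With 5 mice per duration, dim genes near background have the least certain spread.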

Other observations

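Probe sets that the annotation ties to no single gene were left out of the members. Of 10092 such probe sets, 43 had a residual SD of at least 1 among the vehicle livers, and the highest had 3.07, above that of any named gene. That probe set, which has no symbol, read 5.29, 9.17, 8.39, 5.09 and 11.58 at 28 days and 5.26, 5.47, 4.83, 12.02 and 10.44 at 90 days, and another without a symbol was high in the same 5 mice, with a residual SD of 2.27. One more, with a residual SD of 2.91, lay at 4.65 in 28-day mouse 3 and at 4.97 in 90-day mouse 4, and between 10.42 and 12.21 in the other 8.

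A probe set shared by Cyp2a5 and Cyp2a4, P450 enzymes of the cluster that also holds Cyp2a12 and Cyp2g1, read 11.41, 12.11, 6.84, 9.08 and 10.97 at 28 days and 8.99, 12.01, 12.75, 11.88 and 7.64 at 90 days. It was low in 28-day mice 3 and 4 and 90-day mice 1 and 5, as was Cyp2a12. A probe set shared by Xlr4a, Xlr4b and Xlr4c had a residual SD of 1.96. These were chosen after their values were seen and carry no test.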
